A study of Homo sapiens with 19 samples.

Results

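The response of HCT116 cells to GSK715, an inhibitor of the type I protein arginine methyltransferases, was examined over all genes that passed an expression filter. The members are 6 of the 19 libraries of the series: 3 from HCT116 cells given 5 µM GSK715 (GSK3368715) for 96 h, and 3 from HCT116 cells given the solvent DMSO for the same time. HCT116 is an established human colorectal carcinoma line, and no engineered change is named for any of these groups. Further groups enter where they are named: HCT116 cells given 10 µM GSK025 (GSK3235025, an inhibitor of PRMT5) for 96 h (n = 3), and WiDr cells, another colorectal carcinoma line, given 5 µM GSK715 or DMSO for 96 h (n = 3 each). Each compound was used at a single dose and time. The labels do not say that replicates are separate cultures, and the p-values therefore measure only how far these libraries differ, which may be technical. RNA was enriched for poly(A) and sequenced as short read pairs, and the values are deposited read counts per gene. Of 60612 gene IDs, 19751 passed the filter and were tested.

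Protein arginine methyltransferases move methyl groups from S-adenosylmethionine to the side chains of arginine. The type I enzymes (PRMT1, PRMT2, PRMT3, CARM1, PRMT6 and PRMT8) make asymmetric dimethylarginine, type II enzymes such as PRMT5 make symmetric dimethylarginine, and PRMT7 makes the monomethyl form. Their substrates include histones and many RNA-binding proteins, among them hnRNP proteins and proteins with repeats of arginine and glycine (RGG), and they are best known for roles in transcription, splicing and RNA export.

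Library totals ran from 65213901 to 66915779 counts with GSK715 and from 64558688 to 65787836 counts with DMSO. Between 22767 and 23168 genes had a count with GSK715, against 24307 to 24482 with DMSO. The 100 genes with the most counts took 30.1% to 30.4% of all counts with GSK715 and 27.2% to 27.5% with DMSO. Levels are given as counts per 1000000 scaled by TMM (CPM). All markers of colorectal epithelium in a list of 9 were above 10 CPM in every library except VIL1, which reached at most 0.678 CPM. Their summed level was 6780 to 7270 CPM with GSK715 and 5060 to 5180 CPM with DMSO, and 5 of the 9 were higher and 1 lower. The 7 fibroblast markers, mostly COL1A1, summed to 22.5 to 27.7 CPM with GSK715 and 17.4 to 20 CPM with DMSO, and the 5 endothelial markers to 1.94 to 2.28 CPM with GSK715 and 2 to 2.53 CPM with DMSO. Of the 4 immune markers PTPRC had no count in any of the 6 libraries, and the sum of 73.8 to 83.8 CPM with GSK715, against 36.3 to 40.9 CPM with DMSO, was nearly all CD68, a gene that tumour cells also express. In bulk RNA, fewer cells of a kind and less RNA per cell cannot be told apart.

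GSK715 changed 9157 of the 19751 genes tested (46.4%) at an adjusted p under 0.05 in edgeR's quasi-likelihood test. Of these 4372 were higher (22.1%) and 4785 lower (24.2%). Large changes were more often decreases, with 527 genes (2.67%) at least 2-fold higher and 1692 (8.57%) at least 2-fold lower. The split moved with the scaling: with library totals in place of TMM, 2994 genes were higher and 6343 lower, and the median of all genes moved by -0.16 on the log2 scale. Where library totals moved the share of higher among a list's calls by over 10 percentage points, the counts higher and lower with them are added in brackets. This was done only for GSK715 against DMSO in HCT116, and list counts of other comparisons are with TMM alone. The gene lists below are described by counts and medians. They are to be read against the shares of all genes tested and their median log2 fold change of -0.05. Calls also depended on biotype and level. Of 10648 protein-coding genes with a mean of at least 5 CPM, 35.2% were higher and 32.5% lower (median 0.015). In the highest quintile of DMSO level among them, 50.6% were higher and 30.4% lower. For lists of such genes these shares are the closer background.

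The methyltransferases themselves changed in both directions. PRMT1, the main type I enzyme, had 331, 319 and 302 CPM with GSK715, against 233, 240.5 and 225 CPM with DMSO (log2 fold change 0.45, SE 0.047, adjusted p = 4.7e-06). CARM1, which methylates histone H3 and coactivators, had 152, 136 and 138 CPM with GSK715, against 96.8, 109 and 112 CPM with DMSO (log2 fold change 0.42, adjusted p = 8e-05). In both genes all 3 GSK715 libraries lay above all 3 DMSO libraries. Groups lay apart, in either direction, in 11259 of the 19751 genes tested, so such a gap is common here. PRMT6, a nuclear enzyme that acts on histone H3, had 2.06, 2.23 and 2.97 CPM with GSK715, against 4.32, 5.32 and 4.78 CPM with DMSO (log2 fold change -0.99, SE 0.21, adjusted p = 0.0016). PRMT3, which acts on a ribosomal protein in the cytosol, had 10.04, 10.7 and 12.3 CPM with GSK715, against 17.4, 16.3 and 19.96 CPM with DMSO (log2 fold change -0.70, adjusted p = 0.00015). For these genes the groups lay apart in the other direction. PRMT2 did not pass (log2 fold change 0.12, adjusted p = 0.22), PRMT8 was below the filter, and the median of the 5 tested enzymes, 0.12, changed sign with library totals (-0.04) and with no count filter (-0.29). Among the other classes, PRMT5 was slightly higher (log2 fold change 0.23, adjusted p = 0.00064), a call that ended with library totals (log2 fold change 0.07, adjusted p = 0.18). PRMT9 did not pass (log2 fold change -0.08, adjusted p = 0.65). PRMT7 was lower (log2 fold change -0.30, adjusted p = 0.035). Its call ended without DMSO replicate 1 (0.15), without DMSO replicate 2 (0.082), without GSK715 replicate 2 (0.085), without GSK715 replicate 3 (0.12), with no count filter (0.063), with a replicate block (0.051) and with only the 6 libraries compared (0.065), with the adjusted p in brackets.

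Genes that supply the methyl donor changed at single steps. MAT2A, the enzyme that makes S-adenosylmethionine, had 141, 145 and 145 CPM with GSK715, against 282, 278 and 280.4 CPM with DMSO (1.95-fold lower, adjusted p = 1.1e-09). MTR, methionine synthase, had 15.1, 14.1 and 17.1 CPM with GSK715, against 41.03, 40.01 and 42.8 CPM with DMSO (2.67-fold lower, adjusted p = 2.2e-08). MTRR, which reactivates methionine synthase, rose 1.55-fold, and AHCY, which clears the inhibitory product S-adenosylhomocysteine, rose 1.49-fold. MTAP, the first enzyme of methionine salvage, fell 1.58-fold. The list of the methionine cycle had 6 higher and 5 lower of 17 tested members (3 and 6 with library totals), with a median log2 fold change of 0.14 that turned to -0.02 with library totals.

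**Figure D1:**
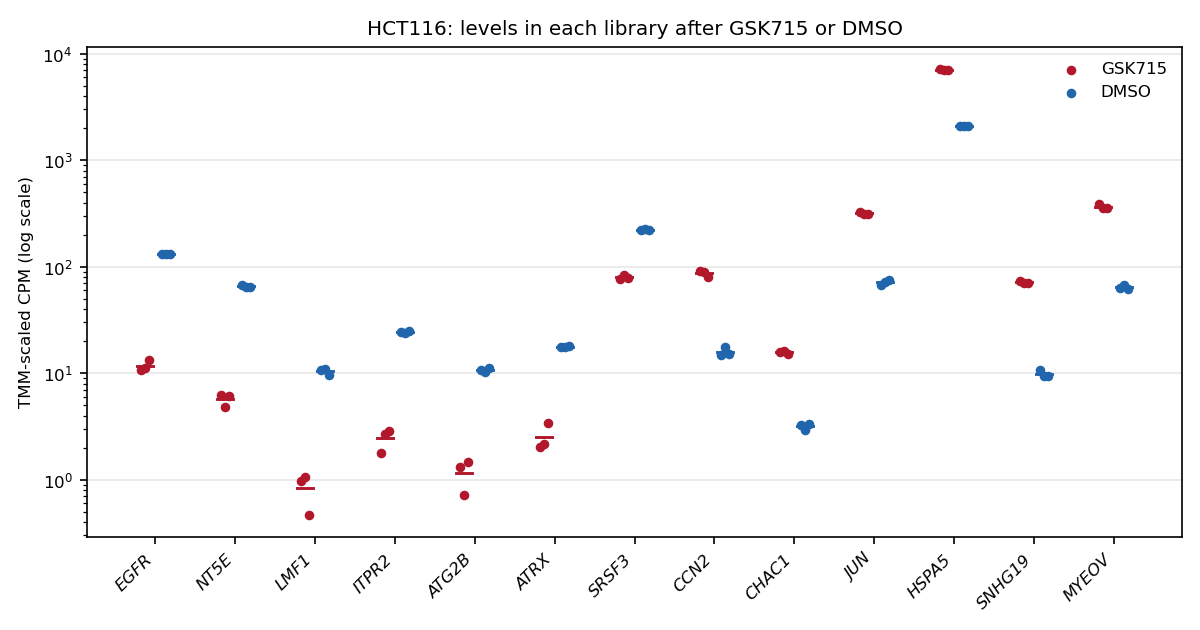
Level of 13 genes in each HCT116 library, in TMM-scaled CPM on a log axis, with GSK715 libraries to the left of DMSO libraries for each gene. Points are libraries and bars are group means (n = 3 each). For every gene shown the 3 libraries of each group lie apart from those of the other group, as in 11259 of all 19751 genes tested.

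The largest decreases included a growth factor receptor and proteins of the cell surface and the endoplasmic reticulum (ER). EGFR, the receptor of epidermal growth factor (chr7:55019021-55211628, GRCh38), had 10.8, 11.2 and 13.4 CPM with GSK715, against 133, 131 and 133 CPM with DMSO (11.2-fold lower, log2 fold change -3.49, SE 0.079, adjusted p = 1.5e-11). NT5E, the surface enzyme CD73 that makes adenosine from AMP (chr6:85449584-85495791), had 6.21, 4.799 and 6.12 CPM with GSK715, against 67.04, 64.3 and 64.8 CPM with DMSO (11.4-fold lower, adjusted p = 3e-11). In both genes the libraries of a group lay close together beside the gap between groups. ITPR2, a channel that releases calcium from the ER, had 1.79, 2.68 and 2.86 CPM with GSK715, against 24.2, 23.7 and 25.01 CPM with DMSO (9.93-fold lower, adjusted p = 1.7e-08). LMF1, an ER factor for the maturation of lipases, had 0.966, 1.06 and 0.466 CPM with GSK715, against 10.6, 10.9 and 9.65 CPM with DMSO (12.5-fold lower). KITLG, the ligand of the receptor KIT, had 112, 138 and 123 CPM with GSK715, against 856, 795 and 862 CPM with DMSO (6.74-fold lower). LMF1 had the largest fold of the 15 largest decreases and KITLG had the highest CPM, a level not corrected for gene length. The others included ATG2B, a lipid transfer protein of autophagy (9.19-fold lower), ATRX, a chromatin remodeller (7.05-fold lower), HDAC4, a histone deacetylase (6.14-fold lower), SLC1A1, a glutamate transporter (6.04-fold lower), PRKACB, a catalytic subunit of protein kinase A (6-fold lower), and KIF18A, a mitotic kinesin (5.94-fold lower). That the groups lay apart was required of the genes named here.

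The largest increases included matrix proteins, a keratin and noncoding RNAs. CCN2, a secreted matrix protein and target of YAP, had 91.6, 89.2 and 80.4 CPM with GSK715, against 14.8, 17.6 and 15.2 CPM with DMSO (log2 fold change 2.46, SE 0.081, adjusted p = 2.6e-10). MYEOV, a gene known for overexpression in myeloma, had 385, 359.5 and 358 CPM with GSK715, against 62.6, 67.1 and 62.4 CPM with DMSO (5.74-fold higher). KRT80, an epithelial keratin, had 42.1, 45.2 and 38.7 CPM with GSK715, against 7.5, 7.64 and 8.34 CPM with DMSO (5.36-fold higher). Every GSK715 library of these genes lay above every DMSO library, which was required of the genes named here. KRTAP2-3, a keratin-associated protein gene, rose 6.14-fold, UPP1, uridine phosphorylase, rose 3.72-fold, and DCLK1, a kinase that binds microtubules, rose 3.84-fold from a low level.

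The list of the EGF receptor family and its ligands had 6 higher and 3 lower of 16 tested members (5 and 4 with library totals), with a median log2 fold change of 0.16 that turned to -0.002 with library totals. Of the members called higher, ADAM17, ERRFI1 and LRIG1 are neither receptors of this family nor ligands. Besides EGFR, the ligand EREG had 58.6, 57.6 and 55.96 CPM with GSK715, against 197, 200.5 and 208 CPM with DMSO (3.51-fold lower, adjusted p = 1.5e-11), and AREG, another ligand, was 1.47-fold lower. HBEGF, also a ligand, had 25.6, 24.4 and 25.3 CPM with GSK715, against 11.3, 11.97 and 12.3 CPM with DMSO (2.12-fold higher, adjusted p = 5.7e-07). TGFA, a further one, was 1.64-fold higher. Within this family the receptor and 2 ligands were thus lower while the other ligands named were higher.

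Output and feedback genes of MAPK signalling had 11 higher and 4 lower of 19 tested members (median log2 fold change 0.30). DUSP5, a phosphatase that switches off nuclear ERK, had 977, 893 and 900.2 CPM with GSK715, against 376, 369.9 and 375 CPM with DMSO (2.47-fold higher, adjusted p = 1.7e-10), and DUSP1, a related phosphatase, rose 3.17-fold. ETV1, an ETS transcription factor, fell 2.53-fold and PHLDA1 fell 1.71-fold. Immediate early and AP-1 genes had 9 higher and 5 lower of 18 tested members (7 and 8 with library totals), with a median of 0.12 that turned to -0.04 with library totals. JUN, a subunit of AP-1, had 327, 311 and 314 CPM with GSK715, against 67.8, 72.2 and 74.6 CPM with DMSO (4.43-fold higher, adjusted p = 1.6e-11). JUND and JUNB, the other JUN proteins, rose 2.19-fold and rose 2.02-fold, and FOSL2, a FOS-related subunit, rose 2.27-fold. Of the 5 members called lower, FOS, EGR1 and EGR2 were 1.32-fold lower, 1.49-fold lower and 2.31-fold lower.

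Targets of YAP and TEAD, the transcription complex that responds to cell shape and density, had 11 higher and 7 lower of 22 tested members (median log2 fold change 0.39). CCN1, a matrix protein related to CCN2, had 141, 141 and 143 CPM with GSK715, against 33.1, 34.6 and 31.5 CPM with DMSO (4.29-fold higher). LATS2, a kinase that restrains YAP, rose 1.77-fold. NT5E belongs to this list as well, and MYOF, a membrane repair protein, fell 2.66-fold. Genes of mesenchymal transition and extracellular matrix had 11 higher and 2 lower of 30 tested members (median 0.33; 7 and 3 with library totals): LAMB3, a laminin chain, rose 2.8-fold, and THBS1, thrombospondin, rose 2.12-fold. Integrin subunits, receptors for the matrix, had 4 higher and 7 lower of 15 tested members (median -0.29; 2 and 8 with library totals). ITGAV fell 1.66-fold and ITGA3 fell 1.54-fold, whereas ITGA5 rose 1.47-fold.

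Genes of the ATF4 response were mostly higher. ATF4 is a transcription factor whose translation increases when stress kinases phosphorylate eIF2-alpha, and its targets serve amino acid synthesis, uptake and tRNA charging. ATF4 mRNA had 513, 508 and 501 CPM with GSK715, against 272, 283 and 280.4 CPM with DMSO (1.82-fold higher, SE 0.042 on the log2 scale, adjusted p = 6e-09). The list of ATF4 signalling had 14 higher and 2 lower of 21 tested members (median log2 fold change 0.56). CHAC1, which degrades glutathione, had 15.9, 16.3 and 15.2 CPM with GSK715, against 3.24, 2.95 and 3.31 CPM with DMSO (4.99-fold higher, adjusted p = 5.4e-08). ATF3, a transcription factor of the same pathway, had 201, 197 and 193 CPM with GSK715, against 60.8, 62.9 and 61.3 CPM with DMSO (3.2-fold higher, adjusted p = 7e-10). In these 3 genes the groups did not overlap, as in 11259 of all 19751 genes tested. For CHAC1, one of the 15 largest increases, this was required. SESN2 and DDIT4, both inhibitors of mTORC1, rose 2.91-fold and rose 2.54-fold. The members that fell were EIF2AK2, the kinase PKR (2.62-fold lower), and EIF2S1, the eIF2-alpha subunit itself (1.45-fold lower).

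Enzymes of amino acid synthesis rose in part. ASNS, asparagine synthetase, had 636, 611 and 598 CPM with GSK715, against 232, 232 and 232 CPM with DMSO (2.65-fold higher, adjusted p = 3.2e-11). PSAT1 and PHGDH, enzymes of serine synthesis, rose 2.27-fold and rose 2.15-fold, and GPT2, an alanine transaminase, rose 1.9-fold. Their list, with folate enzymes, had 12 higher and 5 lower of 23 tested members (median log2 fold change 0.22). Cytosolic aminoacyl-tRNA synthetases, which charge tRNAs, had 12 higher and 3 lower of 20 tested members (median 0.26; 9 and 6 with library totals), with YARS1 1.7-fold higher, MARS1 1.61-fold higher and EPRS1 1.75-fold lower. Their mitochondrial counterparts had 5 higher and 5 lower of 17 tested members (median -0.01; 4 and 7 with library totals). Amino acid transporters had 5 higher and 10 lower of 23 tested members (median -0.21; 3 and 14 with library totals). SLC7A5 and SLC3A2, which together form a leucine transporter, rose 1.9-fold and rose 1.67-fold, but SLC7A11, the cystine transporter, had 15.4, 16.9 and 21.9 CPM with GSK715, against 42.1, 37.3 and 35.6 CPM with DMSO (2.12-fold lower, adjusted p = 3.9e-05).

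ER chaperones were mostly higher too. HSPA5, the chaperone BiP (chr9:125234853-125241330), had 7144, 7098 and 6990 CPM with GSK715, against 2091, 2075 and 2078 CPM with DMSO (3.4-fold higher, log2 fold change 1.77, SE 0.028, adjusted p = 9.6e-13). The list of chaperones and folding enzymes had 16 higher and 5 lower of 25 tested members (median log2 fold change 0.49) and summed to 17800 to 18200 CPM with GSK715, against 9680 to 9770 CPM with DMSO. CALR, calreticulin, rose 1.79-fold, HYOU1, a nucleotide exchange factor for BiP, rose 1.64-fold and SDF2L1 rose 1.64-fold, while DNAJC10, a reductase of the ER, fell 1.83-fold. Sensors and degradation factors had 13 higher and 4 lower of 22 tested members (median 0.18; 7 and 6 with library totals). HERPUD1, a scaffold of ER-associated degradation, had 328, 319.7 and 304 CPM with GSK715, against 115, 111 and 115 CPM with DMSO (2.79-fold higher), and EDEM3, which trims sugars of misfolded proteins, fell 3.41-fold. XBP1, a transcription factor of the unfolded protein response, had 89.4, 81.9 and 79.6 CPM with GSK715, against 70.6, 78.4 and 71.6 CPM with DMSO (log2 fold change 0.18, adjusted p = 0.016). Its call ended without DMSO replicate 1 (0.07), without DMSO replicate 3 (0.063), without GSK715 replicate 1 (0.071) and with library totals (0.75), with the adjusted p in brackets. Gene counts do not show its spliced form. Genes of membrane insertion and secretory transport had 19 higher and 10 lower of 35 tested members (median 0.20; 17 and 14 with library totals).

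Promoters of these genes hold known response elements, and 7 stretches are printed as examples. Their genes rose, belong to the lists of ER, ATF4 or amino acid synthesis genes and hold a motif searched. They were chosen with these values known. HSP90B1, CANX and XBP1 (ERSE), SDF2L1 (ERSE-II), and MTHFD1L and GOT1 (CARE) met the same conditions and are not printed. The printed stretches come from the RefSeq promoter table for GRCh38.p14. They are written 5′ to 3′ on the strand of the gene, within the 250 bases before the start. Capitals mark an exact match, on either strand, to the ER stress response element ERSE (CCAAT and CCACG with any 9 bases between), to ERSE-II (ATTGG and CCACG with any 1 base between) or to the C/EBP and ATF element CARE (TGATGNAA). HSPA5 and CALR hold ERSE, HYOU1 and HERPUD1 hold ERSE-II, and HERPUD1, ASNS, CHAC1 and ATF3 hold CARE. The capitals read as the reverse complement of the motif in CALR, HYOU1, CHAC1 and the CARE of HERPUD1.
HSPA5, chr9:125241378-125241443, minus strand: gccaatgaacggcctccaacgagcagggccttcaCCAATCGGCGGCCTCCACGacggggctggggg
CALR, chr19:12938374-12938414, plus strand: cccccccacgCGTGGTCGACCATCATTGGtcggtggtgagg
HYOU1, chr11:119057255-119057305, minus strand: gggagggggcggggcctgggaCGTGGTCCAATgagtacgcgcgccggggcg
HERPUD1, chr16:56931957-56932042, plus strand: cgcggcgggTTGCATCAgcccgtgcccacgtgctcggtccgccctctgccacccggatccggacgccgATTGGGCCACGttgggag
ASNS, chr7:97872448-97872498, minus strand: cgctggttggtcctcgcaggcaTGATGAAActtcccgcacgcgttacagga
CHAC1, chr15:40953241-40953291, plus strand: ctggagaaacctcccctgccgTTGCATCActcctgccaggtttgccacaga
ATF3, chr1:212565197-212565242, plus strand: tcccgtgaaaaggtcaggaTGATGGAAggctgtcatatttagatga

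ERSE letters were found in 6 of the 24 ER chaperone promoters in the table (25%), and in 22 of all 27305 promoters (0.0806%). Among the 12735 promoters of genes tested, a closer background, 16 held ERSE (0.126%), 11 held ERSE-II (0.0864%) and 182 held CARE (1.43%). The 14 promoters of immediate early and AP-1 genes held 0 matches to each motif. Of the 6 ER chaperone genes with ERSE, HSPA5, HSP90B1, CALR and CANX were higher, ERO1B did not pass (log2 fold change 0.08, adjusted p = 0.53) and CRELD2 was lower (log2 fold change -0.22, adjusted p = 0.021). Its call ended without DMSO replicate 1 (0.066), without DMSO replicate 3 (0.052) and without GSK715 replicate 3 (0.088), with the adjusted p in brackets. HSP90B1, CANX and ERO1B are named for the match, after their values were seen. ERSE-II was found in HYOU1 and SDF2L1 of the 24 ER chaperone promoters (8.33%) and in 14 of all promoters (0.0513%). CARE was found in 4 of 19 promoters of ATF4 signalling genes (21.1%), in 3 of 15 of the synthesis and folate enzymes (20%) and in 2 of 16 of the cytosolic tRNA synthetases (12.5%), and in 870 of all promoters (3.19%). Of the ATF4 signalling genes that hold it CHAC1 and ATF3 were higher, PPP1R15B did not pass (log2 fold change 0.05, adjusted p = 0.42) and FGF21 was below the filter, and the holders in the other lists, MTHFD1L, ASNS, GOT1, AARS1 and IARS1, were higher. All of these except CHAC1, ATF3, ASNS and AARS1 are named for the match. A match describes letters and not a bound site, and other forms of the elements were not searched.

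**Figure D2:**
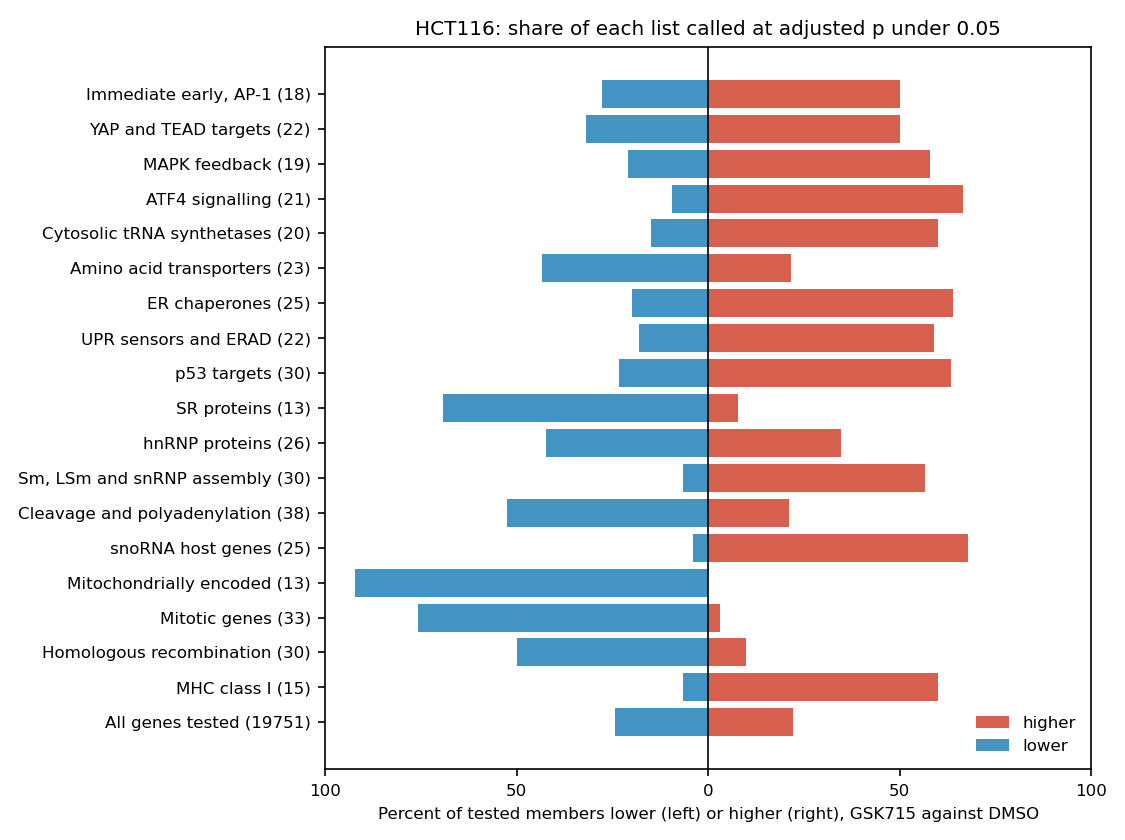
Percent of the tested members of 18 gene lists called lower (left) or higher (right) with GSK715 than with DMSO in HCT116 at an adjusted p under 0.05, beside all 19751 genes tested. Mitochondrially encoded, mitotic and SR protein genes extend to the left and ATF4, ER chaperone and snoRNA host genes to the right of a background of 22.1% higher and 24.2% lower. Of protein-coding genes with a mean of at least 5 CPM, 35.2% were higher and 32.5% lower.

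Factors of RNA processing, many of them known substrates of these enzymes, split by class. SR proteins, which bind exons and promote splicing, had 1 higher and 9 lower of 13 tested members (median log2 fold change -0.60). SRSF3 had 76.2, 83.7 and 77.95 CPM with GSK715, against 223, 227 and 220.5 CPM with DMSO (2.82-fold lower, adjusted p = 1.7e-10). SRSF1 had 48.2, 45.1 and 40.4 CPM with GSK715, against 107, 96.1 and 103 CPM with DMSO (2.28-fold lower), and SRSF6 was 2.06-fold lower. The groups lay apart in SRSF3 and SRSF1. The single member called higher, SRSF4 (log2 fold change 0.14, adjusted p = 0.037), turned to -0.02 with library totals. Its call ended without DMSO replicate 1 (0.076), without DMSO replicate 2 (0.068), without DMSO replicate 3 (0.1), without GSK715 replicate 3 (0.13), with library totals (0.77), with no count filter (0.06) and with a replicate block (0.058), with the adjusted p in brackets. Sm and LSm proteins and their assembly factors, the core of the spliceosomal snRNPs, had 17 higher and 2 lower of 30 tested members (median 0.24), and with library totals 6 were higher and 6 lower. LSM7, LSM3 and LSM4 rose 1.59-fold, 1.55-fold and 1.52-fold, and LSM8 fell 1.86-fold.

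The hnRNP proteins, which package nascent RNA, had 9 higher and 11 lower of 26 tested members (median log2 fold change -0.04; 7 and 15 with library totals). HNRNPA1 had 2411, 2452 and 2380 CPM with GSK715, against 1405, 1428 and 1425 CPM with DMSO (1.7-fold higher, adjusted p = 4e-10), and HNRNPL rose 1.56-fold. PTBP3, HNRNPDL and HNRNPD fell 1.96-fold, 1.67-fold and 1.59-fold. RGG-box and stress granule proteins had 10 higher and 16 lower of 33 tested members (median -0.09). SFPQ, a paraspeckle protein, fell 2.3-fold, and DDX3X, an RNA helicase, fell 1.91-fold. PABPN1, the nuclear poly(A) binding protein, rose 2.16-fold, and RBM3, a cold-induced RNA-binding protein, rose 1.8-fold.

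Cleavage, polyadenylation and Integrator factors, which end transcripts, had 8 higher and 20 lower of 38 tested members (median log2 fold change -0.20; 4 and 22 with library totals). PCF11, a termination factor, fell 2.62-fold, INTS2 and INTS6 fell 2.25-fold and 1.91-fold, and CDK12, a kinase of RNA polymerase II, fell 1.84-fold, while CPSF1 rose 1.39-fold. Nonsense-mediated decay factors had 8 higher and 5 lower of 18 tested members (5 and 6 with library totals), with a median of 0.12 that turned to -0.04 with library totals. SMG1, the kinase of this pathway, had 53.2, 64.4 and 58.6 CPM with GSK715, against 139, 134 and 137 CPM with DMSO (2.33-fold lower), and MAGOHB, an exon junction protein, fell 2.58-fold.

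Host genes of small nucleolar RNAs (snoRNAs) were mostly higher. Their introns release snoRNAs, which guide the modification of ribosomal RNA. The list had 17 higher and 1 lower of 25 tested members, with 9 at least 2-fold higher and a median log2 fold change of 0.71. SNHG19 had 73.8, 70.98 and 70.4 CPM with GSK715, against 10.7, 9.38 and 9.46 CPM with DMSO (7.29-fold higher, SE 0.084 on the log2 scale, adjusted p = 1.1e-10). SNHG29 had 1550, 1461 and 1416 CPM with GSK715, against 616, 602 and 570.1 CPM with DMSO (2.48-fold higher). The groups lay apart in both, which was required of SNHG19 as one of the 15 largest increases. SNHG17 was the member that fell (1.51-fold lower). Ribosome biogenesis factors had 10 higher and 19 lower of 37 tested members (median -0.17; 6 and 21 with library totals). UTP20 and NOP58, nucleolar proteins, fell 2.53-fold and 2.14-fold, whereas FBL, the methyltransferase of snoRNPs and itself an RGG protein, rose 1.35-fold.

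Other long noncoding RNAs had 7 higher and 6 lower of 21 tested members (median log2 fold change -0.19). FOXD2-AS1 had 11.3, 11.02 and 12.2 CPM with GSK715, against 1.59, 1.57 and 1.79 CPM with DMSO (6.96-fold higher). MALAT1, an RNA of nuclear speckles, had 13.2, 14.2 and 19.2 CPM with GSK715, against 51.5, 42.02 and 40.4 CPM with DMSO (2.87-fold lower, adjusted p = 1.4e-06). NEAT1, the scaffold of paraspeckles, had 118, 117 and 119 CPM with GSK715, against 91.6, 90.3 and 90.2 CPM with DMSO (1.3-fold higher). In all 3 the groups lay apart, which was required of FOXD2-AS1 as one of the 15 largest increases. UCA1, a lncRNA of epithelial tumours, fell 2.58-fold. The level of RNAs with little poly(A) also depends on the enrichment step.

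Transcripts encoded in mitochondria were lower, with 0 higher and 12 lower of 13 tested members (median log2 fold change -0.69). MT-CYB, a subunit of respiratory complex III, had 1051, 1009 and 1087 CPM with GSK715, against 2203, 2135 and 2162 CPM with DMSO (2.07-fold lower, adjusted p = 2.6e-10), and MT-ATP6, a subunit of ATP synthase, was 1.91-fold lower. Mitochondrially encoded genes took 5.24 ± 0.16% of all counts with GSK715 and 8.82 ± 0.24% with DMSO (SD, n = 3 each). Every GSK715 library was below every DMSO library, and the two-sided exact permutation test gave p = 0.1, the smallest possible with 3 against 3. The share was 5.126% to 5.484% with GSK025, so both inhibitors lay below DMSO. The mitochondrial ribosomal proteins, which the nucleus encodes, had 27 higher and 11 lower of 58 tested members (17 and 18 with library totals), with a median of 0.16 that vanished with library totals.

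Genes of mitosis were mostly lower, with 1 higher and 25 lower of 33 tested members (median log2 fold change -0.41). CENPE, a kinetochore motor, had 1.82, 2.54 and 3.87 CPM with GSK715, against 13.2, 8.54 and 10.8 CPM with DMSO (3.96-fold lower, adjusted p = 3e-05). CENPF, a kinetochore protein, fell 3.26-fold, KIF11, a spindle motor, fell 2.86-fold, and ASPM, a spindle pole protein, fell 2.42-fold. CDC25C, the member called higher (adjusted p = 0.0057), did not pass with library totals (adjusted p = 0.077). Regulators of the G1 phase had 13 higher and 8 lower of 23 tested members (median 0.30). RB1, the retinoblastoma protein, had 13.8, 11.5 and 10.7 CPM with GSK715, against 38.8, 39.4 and 40.9 CPM with DMSO (3.31-fold lower). E2F5 fell 5.13-fold and CDK6 fell 1.74-fold, while CDKN1C, the inhibitor p57, rose 2.12-fold and CCND3 rose 1.87-fold. CCND1, cyclin D1, had 544, 538 and 497 CPM with GSK715, against 421, 429 and 429 CPM with DMSO (1.23-fold higher), and MYC was 1.15-fold lower (adjusted p = 0.0017).

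Targets of p53, which HCT116 retains in its wild-type form, had 19 higher and 7 lower of 30 tested members (median log2 fold change 0.42). CDKN1A, the inhibitor p21, had 395, 371 and 356 CPM with GSK715, against 262, 285 and 265 CPM with DMSO (1.38-fold higher, adjusted p = 2.3e-06). BBC3, the pro-apoptotic protein PUMA, rose 2.78-fold, and FDXR, a mitochondrial reductase, rose 2.5-fold. MDM2, which degrades p53, had 49.2, 63.3 and 59.1 CPM with GSK715, against 105, 96.7 and 109 CPM with DMSO (1.81-fold lower), and RRM2B, a ribonucleotide reductase subunit, fell 2.07-fold. The BCL2 family had 7 higher and 6 lower of 17 tested members (5 and 7 with library totals), with a median of 0.15 that turned to -0.01 with library totals. HRK, a pro-apoptotic member, had 7.76, 8.697 and 9.84 CPM with GSK715, against 2.04, 1.73 and 2.32 CPM with DMSO (4.31-fold higher).

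Genes of homologous recombination and the Fanconi pathway had 3 higher and 15 lower of 30 tested members (median log2 fold change -0.44; 0 and 17 with library totals). RAD50 and MRE11, which bind broken DNA ends together, fell 3.7-fold and 2.18-fold, and BRIP1 and PALB2, partners of the BRCA proteins, fell 3.23-fold and 2.49-fold. The kinases related to PI3K had 0 higher and 4 lower of 6 tested members (median -0.76). ATM, which signals DNA breaks, had 6.07, 6.09 and 7.07 CPM with GSK715, against 25.1, 23.1 and 23.8 CPM with DMSO (3.75-fold lower), and ATR, which signals stalled replication, fell 2.89-fold. DNA replication genes had 11 higher and 11 lower of 37 tested members (median -0.01; 6 and 17 with library totals). Histone methyltransferases of the KMT2, SETD and NSD families had 4 higher and 12 lower of 22 tested members (median -0.31; 2 and 15 with library totals), with NSD3 2.38-fold lower and SETD2, which methylates lysine 36 of histone H3, 2.01-fold lower.

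Epithelial and surface genes changed in both directions. Keratins had 8 higher and 3 lower of 16 tested members (median log2 fold change 0.85). That median lay between the values of KRT14 and KRT17, neither of them called. Some called members were under 5 CPM in both groups, such as KRT81 and KRT86 (higher) and KRT20 (lower). KRT19, an abundant keratin, was lower (log2 fold change -0.29, adjusted p = 2.8e-05). KRT8, a keratin of simple epithelia, had 3640, 3519 and 3404 CPM with GSK715, against 2053, 2128 and 2062 CPM with DMSO (1.69-fold higher). KRT15 rose 3.19-fold and KRT23 fell 4.42-fold. Genes of adhesion and tight junctions had 9 higher and 5 lower of 29 tested members (6 and 13 with library totals), with a median of 0.04 that turned to -0.12 with library totals. CLDN7 and CLDN4, claudins of tight junctions, rose 1.85-fold and 1.68-fold, and DSP, desmoplakin, fell 2.04-fold. CD44, a receptor of hyaluronan, had 369, 365 and 354 CPM with GSK715, against 682, 697 and 709 CPM with DMSO (1.92-fold lower).

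Among immune-related genes, those of MHC class I presentation had 9 higher and 1 lower of 15 tested members (median log2 fold change 0.37). HLA-B rose 1.92-fold, though class I genes are near-identical in part and reads may be split among them. PSMB10, a subunit of the immunoproteasome, rose 2.14-fold. Interferon-stimulated genes had 10 higher and 10 lower of 39 tested members (7 and 12 with library totals), with a median of 0.16 that turned to -0.001 with library totals: IRF7, a transcription factor, rose 2.41-fold and ISG15 rose 1.9-fold, and DTX3L, a ubiquitin ligase, fell 3.33-fold. NF-kB feedback genes and chemokines had 9 higher and 2 lower of 23 tested members (median 0.43).

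Of the metabolic and stress lists, glycolysis and hypoxia genes had 16 higher and 6 lower of 28 tested members (median log2 fold change 0.26; 11 and 9 with library totals), with ADM, adrenomedullin, 2.35-fold higher and PFKP, a phosphofructokinase, 3.21-fold lower. Heat shock proteins had 12 higher and 10 lower of 24 tested members (7 and 12 with library totals), with a median of 0.09 that turned to -0.07 with library totals. DNAJB1, a co-chaperone of HSP70, had 653, 623 and 631 CPM with GSK715, against 220.4, 213 and 207 CPM with DMSO (2.97-fold higher), HSPB1 rose 2.42-fold and HSP90AA1 fell 1.77-fold. Autophagy genes had 16 higher and 8 lower of 34 tested members (13 and 12 with library totals), with a median of 0.11 that turned to -0.05 with library totals: MAP1LC3B, which coats autophagosomes, rose 2.09-fold and ULK2, an initiating kinase, fell 3.11-fold. NRF2 and glutathione genes had 10 higher and 6 lower of 25 tested members (7 and 9 with library totals), with a median of 0.16 that turned to -0.001 with library totals. NQO1, an NRF2 target, had 385, 362 and 374 CPM with GSK715, against 705, 721 and 709 CPM with DMSO (1.91-fold lower). Sterol genes had 5 higher and 10 lower of 26 tested members (median -0.04; 1 and 16 with library totals).

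Genes that fell tended to have a large total of exonic bases. Over 10648 protein-coding genes with a mean of at least 5 CPM, genes were ranked by exonic length, the bases covered by the exons of any GENCODE 29 transcript. In the shortest quintile (up to 3.11 kb) 48.5% were higher and 14.9% lower with GSK715, and in the longest (over 8.5 kb) 21% were higher and 51.5% lower. At least 2-fold decreases made up 1.55% of the shortest and 15.3% of the longest quintile. Spearman's rho of the log2 fold change was -0.30 with exonic length, -0.29 with genomic span and -0.15 with the number of exons, as a description across genes that share 6 libraries and are not independent. The median exonic length was 3.34 kb in snoRNA host genes and 2.89 kb in Sm and LSm genes, against 10.2 kb in the histone methyltransferases, 17.7 kb in the PI3K-related kinases and 4.02 kb over all genes tested. Other lists went against this order. Mitochondrially encoded genes (0.784 kb) had 0 higher and 12 lower of 13, and replication-dependent histones (0.871 kb) 0 higher and 3 lower of 11. YAP and TEAD targets (5.78 kb) had 11 higher and 7 lower of 22. For GSK025 against the same DMSO libraries rho with exonic length was -0.30, for GSK715 against GSK025 it was 0.01, and in WiDr, which has its own DMSO libraries, it was -0.04. The part of RNA quality and of the DMSO libraries in these values was not tested.

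**Figure D3:**
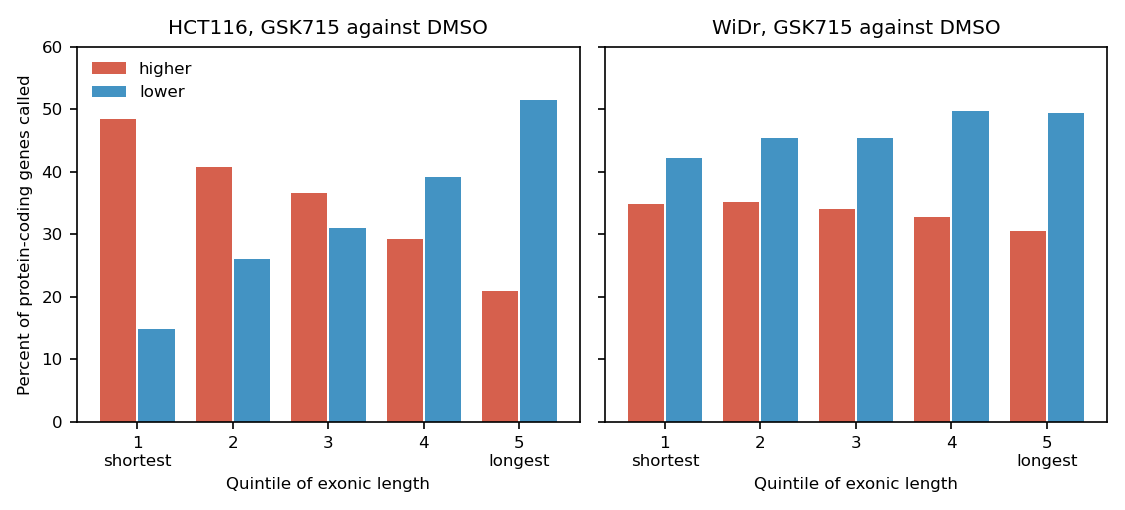
Percent of protein-coding genes (mean of at least 5 CPM in HCT116) called higher or lower with GSK715 than with DMSO, by quintile of exonic length, in HCT116 (left) and WiDr (right). In HCT116 the share lower was 14.9% in the shortest and 51.5% in the longest quintile, and in WiDr 42.3% and 49.4%.

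GSK715 was set against GSK025 in the same line. The doses differed, 5 µM and 10 µM, so compound and dose cannot be told apart. Of 19751 genes 8746 differed (44.3%), 4302 of them higher with GSK715 (21.8%) and 4444 lower (22.5%). With library totals 3474 were higher and 5406 lower. EGFR had 10.8, 11.2 and 13.4 CPM with GSK715, against 137, 122 and 122 CPM with GSK025 (log2 difference -3.43, SE 0.079, adjusted p = 8.8e-12). The range of the GSK025 libraries took in the DMSO libraries, which had 133, 131 and 133 CPM. NEAT1 had 118, 117 and 119 CPM with GSK715, 20.4, 18.7 and 21.4 CPM with GSK025 and 91.6, 90.3 and 90.2 CPM with DMSO (log2 difference between inhibitors 2.55). In NEAT1 the inhibitors lay on opposite sides of the solvent. MALAT1 had 13.2, 14.2 and 19.2 CPM with GSK715, 5.93, 5.96 and 7.01 CPM with GSK025 and 51.5, 42.02 and 40.4 CPM with DMSO, lowest with GSK025.

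ER and ATF4 genes also parted between the inhibitors. HSPA5 had 7144, 7098 and 6990 CPM with GSK715, 1343, 1319 and 1279 CPM with GSK025 and 2091, 2075 and 2078 CPM with DMSO (log2 difference between inhibitors 2.43, SE 0.028, adjusted p = 2.4e-14). CHAC1 was higher with GSK715 than with GSK025 by 3.05 on the log2 scale. Of 25 ER chaperones 22 were higher and 3 lower with GSK715 (median difference 0.54), and of 21 ATF4 genes 11 were higher and 3 lower (median 0.78). Of 30 p53 targets 9 were higher and 18 lower with GSK715 (median -0.36). CDKN1A had 395, 371 and 356 CPM with GSK715, 903, 944 and 908 CPM with GSK025 and 262, 285 and 265 CPM with DMSO. MT-CYB had 1051, 1009 and 1087 CPM with GSK715, 1229, 1226 and 1175 CPM with GSK025 and 2203, 2135 and 2162 CPM with DMSO, so both inhibitors were below the solvent. Mitochondrially encoded genes gave 3 higher and 3 lower of 13 between the inhibitors.

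**Figure D4:**
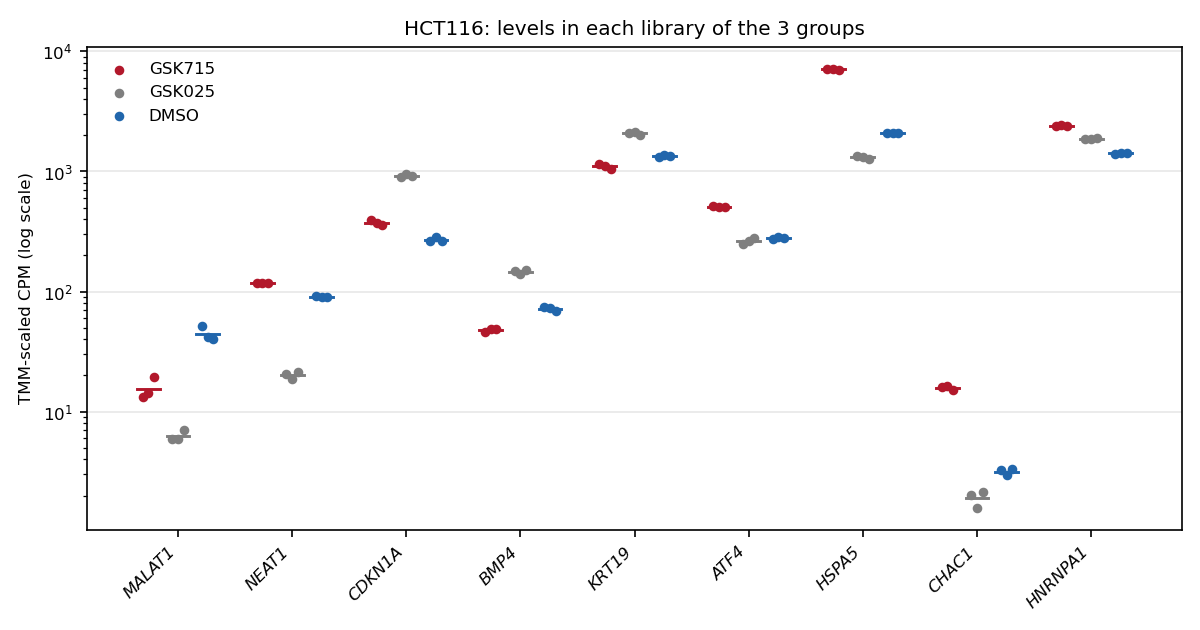
Level of 9 genes in each HCT116 library, in TMM-scaled CPM on a log axis, with GSK715 at the left, GSK025 in the middle and DMSO at the right for each gene (points are libraries, bars are means, n = 3 each). CDKN1A was highest with GSK025, and HSPA5 and CHAC1 were highest with GSK715.

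HCT116 and WiDr were compared by a test of the difference between their responses to GSK715. It passed for 10187 of 21791 genes (46.7%), with 5129 responses higher in HCT116 (23.5%) and 5058 lower (23.2%). With library totals 3203 were higher and 7321 lower, and the median difference over all genes moved by -0.34 on the log2 scale. In WiDr itself 12727 of 19340 genes were called (65.8%), 6502 higher (33.6%) and 6225 lower (32.2%). Of the 16313 genes tested in both lines, 5474 were raised and 5859 lowered in WiDr, which is the base for the shares that follow. Of 4114 genes raised in HCT116 and tested in both lines, 1827 were raised in WiDr too (44.4% of these and 33.4% of the 5474 raised in WiDr) and 1461 were lowered (35.5%). That 35.5% is near the share lowered in WiDr over all 16313 genes. Of 4387 genes lowered in HCT116, 2340 were lowered in WiDr too (53.3% of these and 39.9% of the 5859 lowered in WiDr) and 929 were raised (21.2%).

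Some strong changes were present in both lines. EGFR in WiDr had 11.5, 10.98 and 11.2 CPM with GSK715, against 106, 106 and 111 CPM with DMSO (log2 fold change -3.26), and the difference between the lines did not pass (log2 difference -0.16, SE 0.092, adjusted p = 0.19). SRSF3 fell by 1.16 and FOXD2-AS1 rose by 2.50 on the log2 scale in WiDr. ATF4 targets went opposite ways. CHAC1 in WiDr had 33.3, 32.4 and 34.5 CPM with GSK715, against 187, 180.2 and 171 CPM with DMSO, and the responses differed by 4.81 on the log2 scale (SE 0.075, adjusted p = 5.2e-14). ASNS fell by 2.61, ATF3 fell by 2.54 and SESN2 fell by 2.87 on the log2 scale in WiDr. ATF4 mRNA had a log2 fold change of 0.06 in WiDr (adjusted p = 0.11). Of 21 ATF4 genes 17 responses were higher in HCT116 than in WiDr and 3 lower, and of 20 cytosolic tRNA synthetases 18 and 1. These list counts are with TMM only.

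Further genes differed between the lines. CCN2 in WiDr had 6.69, 6.69 and 7.33 CPM with GSK715, against 37.1, 39.2 and 37.3 CPM with DMSO, and the responses differed by 4.98 on the log2 scale (SE 0.11, adjusted p = 1.1e-12). KRT80 fell by 2.05, MYEOV fell by 1.16 and DUSP1 fell by 2.01 on the log2 scale in WiDr, all of them higher in HCT116. HSPA5 in WiDr had 827, 818 and 821 CPM with GSK715, against 1611, 1614 and 1646 CPM with DMSO (difference between the responses 2.82). MALAT1, lower in HCT116, rose by 1.56 in WiDr (difference -3.01, SE 0.16, adjusted p = 5e-09). ITPR2 fell by 0.35 and ATRX fell by 0.19 in WiDr, with differences of -2.89 and -2.56 between the lines. Of 13 mitochondrially encoded genes 9 were higher and 1 lower in WiDr (median log2 fold change 0.21), and all 13 responses were lower in HCT116 (median difference -0.96). Mitotic genes were lower in WiDr in 33 of 33 (median log2 fold change -1.33), and 25 responses were higher, that is less negative, in HCT116.

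**Figure D5:**
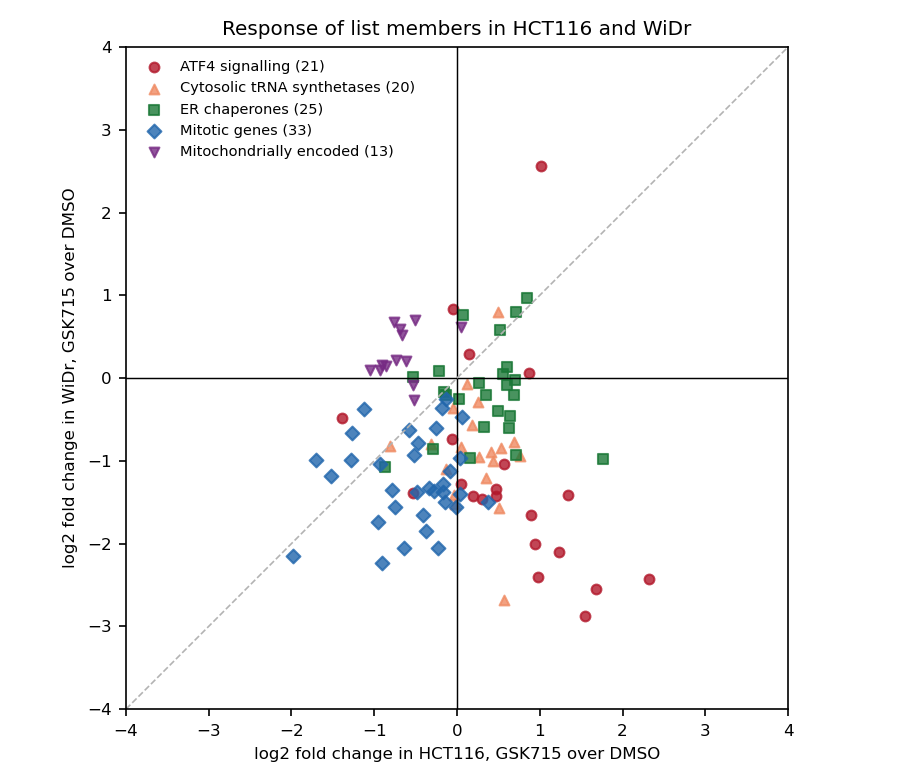
Log2 fold change of GSK715 over DMSO in HCT116 (horizontal) and WiDr (vertical) for the members of 5 gene lists tested in both lines. ATF4 genes and tRNA synthetases lie mostly at lower right, mitotic genes at lower left and mitochondrially encoded genes at upper left.

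Exons of some named genes share at least 10% of their bases with another gene model, and since no source gives the strand their levels are uncertain: ADAM17, ASNS, ATR, CARM1, CCND1, CD68, CLDN7, DDIT4, E2F5, GOT1, HLA-B, JUNB, LRIG1, MARS1, MAT2A, NQO1, PABPN1, PCF11, PHLDA1, PRMT5, PSMB10, RAD50, SNHG29, SRSF1, UCA1 and VIL1. The largest increase by rule was FP565260.2, a model that lies wholly within another. It had 9.66, 10.9 and 13.4 CPM with GSK715 and no count with DMSO, at least 777-fold higher against a floor of 3 counts over the DMSO group.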

How the data were processed

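The authors deposited raw read counts per gene for HCT116 and WiDr, without normalization. The submitters' processing notes name cutadapt, HISAT2, StringTie, DESeq2 and GRCh38, and steps and versions are not given in the sources used here. Long-read files were not used. Some genes that meet the naming rule are not reported here. Samples were grouped by their labels, with the control columns of the WiDr table matched to DMSO as the only group left. Coordinates and exons came from GENCODE 29 and promoters from RefSeq GRCh38.p14.

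With edgeR 4.0.16 in R 4.3.3, genes passed filterByExpr (minimum count 10, total 15), were scaled by TMM and tested by the quasi-likelihood F-test over 9 HCT116 libraries, with Benjamini-Hochberg adjustment over all genes. The difference between lines was fitted over 12 libraries and 60259 shared IDs. SE is the log2 fold change over the square root of F. CPM were scaled within each line, so levels are not compared between lines. The fit was tested on simulated data. Alternatives were RLE scaling, library totals, no filter, DESeq2 1.42.0, a replicate block, only 6 libraries, and each library left out. Totals of 64558688 counts or more per library in both HCT116 groups leave little counting error except at a few CPM.

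The members and the 53 lists were chosen with earlier results of these data known. Genes were named by rule: the 15 largest called changes each way (groups apart, mean at least 5 CPM), up to 4 called members each way per list, a fixed set (7 PRMTs, ATF4, XBP1, EGFR, NT5E, MYC, CCND1, CDKN1A), and the 5 largest differences each way from GSK025 and from WiDr.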

Additional observations from a re-analysis of the deposited data

Results flagged for a closer look

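The responses of HCT116 and WiDr differed by a test of the difference itself (edgeR, HCT116 minus WiDr, log2 scale) in the 10 genes with the largest differences by the naming rule. UNC5B, a netrin receptor, differed by 5.96 (adjusted p = 2.8e-13). In HCT116 it had 143, 138 and 128 CPM with GSK715, against 87.05, 91.4 and 83.97 CPM with DMSO, and in WiDr 3.98, 4.94 and 3.91 CPM with GSK715, against 173, 165.3 and 152 CPM with DMSO. GPAT3, an enzyme of triglyceride synthesis, differed by 5.65 (adjusted p = 5e-14). In HCT116 it had 129.7, 125 and 122 CPM with GSK715, against 50.1, 53.04 and 54.2 CPM with DMSO, and in WiDr 8.33, 7.27 and 8.83 CPM with GSK715, against 166, 157 and 164 CPM with DMSO.

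The other 8 rest on low or uneven counts, where the fitted value depends on the prior count. GRIN2B, a glutamate receptor subunit, differed by -6.36. In HCT116 it had 7.97, 9.99 and 9.89 CPM with GSK715, against 27.1, 21.9 and 23 CPM with DMSO, and in WiDr 0.865, 0.634 and 0.671 CPM with GSK715, against 0, 0 and 0.0508 CPM with DMSO. RNF144A differed by 6.81 and had no count in WiDr with GSK715, at least 15.9-fold below WiDr with DMSO at a floor of 3 counts over the group. RBBP8NL differed by -8.69 and had no count in HCT116 with GSK715, at least 15.9-fold below DMSO. GFY differed by -7.25 and had no count in WiDr with DMSO, and GSK715 was at least 45.1-fold higher. MUC20P1 differed by -6.85, RNF165 by 5.55 and HLTF by -6.67 (adjusted p = 0.015), and the call of HLTF ended without replicate 1 of WiDr with GSK715 (-5.13, adjusted p = 0.08). BEST1 differed by 6.89 (adjusted p = 0.032), with libraries of the same group far apart, at 38.1, 0.695 and 43.2 CPM in HCT116 with GSK715 and 356, 2.18 and 7.36 CPM in WiDr with GSK715. Its call ended when any 1 of 7 libraries was left out (replicates 1, 2 and 3 of HCT116 with DMSO, 1 and 3 of HCT116 with GSK715, and 2 and 3 of WiDr with DMSO), with adjusted p of up to 0.081, and 14.2% of its exonic bases lie in another gene model too.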

How the results depend on the processing

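The 8 counts of changed genes stayed within 1.5 times their value with RLE scaling, no filter, DESeq2 and each library left out, as did the 6 refitted with a replicate block and the 4 refitted on only 6 libraries. Leaving out each library gave 3976 to 4153 genes higher and 4217 to 4442 lower with GSK715 than with DMSO. With library totals 336 genes were at least 2-fold higher, and 3203 responses were higher in HCT116 than in WiDr. At 1.5-fold in place of 2-fold, 1653 genes were higher and 3001 lower. SRSF4 turned to -0.022 with library totals, which ended 24 further calls of named genes. Of the medians of the 53 lists, 48 moved by more than the SD over the GSK715 libraries with library totals (by -0.163 to -0.157, and 12 changed sign), 7 with no filter, 7 on only 6 libraries, 6 with RLE scaling, 6 with DESeq2 and none with a replicate block, and 21 lists did so in at least 1 of the fits that left out a library (shifts of -0.148 to 0.368). The medians of DNA replication genes and mitochondrial tRNA synthetases, both near 0, changed sign with RLE scaling, DESeq2 and only 6 libraries, and that of adhesion genes without GSK715 replicate 3 (-0.018). PRMT9, not called, ran from -0.18 to 0.023 when single libraries were left out. The replicate block gave 4239 higher and 4642 lower. Deviations of same-numbered GSK715 and DMSO libraries correlated at 0.023, -0.158 and 0.023. The labels give these samples the same number but state no pairing, and they were treated as unpaired. With 3 libraries a group these correlations cannot exclude a pairing. The block was not run for the difference between lines, since the WiDr control columns match no single sample.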

Other observations

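Families defined by the stem of the gene symbol, with at least 20 protein-coding members of at least 5 CPM, gave further groups in HCT116. Of all protein-coding genes at this level 35.2% were higher and 32.5% lower (median log2 fold change 0.015). Genes with the stems RPS and RPL, mostly cytosolic ribosomal proteins, were mostly higher with GSK715 than with DMSO. These were 37 of 44 RPS genes (4 lower, median log2 fold change 0.62) and 46 of 52 RPL genes (1 lower, median 0.57). The stems also match genes that are not ribosomal proteins, such as kinases of the RPS6K group, and these were not separated. In WiDr 28 of 43 and 41 of 51 were higher. Ribosomal protein genes share reads with processed pseudogenes, so their levels are uncertain. Centrosomal CEP genes had 0 of 34 higher and 25 lower (median -0.73), and KIF kinesins 1 of 27 higher and 17 lower (median -0.43). ZNF zinc finger genes had 40 of 251 higher and 101 lower (median -0.20), and ZBTB genes 6 of 34 higher and 20 lower (median -0.42). COX genes, mostly of cytochrome c oxidase, had 11 of 21 higher and 2 lower (median 0.37). These medians kept their sign with library totals.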
